A study of Mus musculus with 74 samples.

Results

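The comparison described here was made on the nonmicroglial cells of mouse brain during a cuprizone diet, with 12 weeks on the diet set against 5 weeks. It used 19 of the 74 libraries of the study, chosen by their labels alone: all nonmicroglia libraries from mice fed cuprizone, 9 at 5 weeks and 10 at 12 weeks. Whole brains were perfused and dissociated, viable cells were sorted, Cd11b+ cells were taken as microglia, and every other viable cell went into the nonmicroglia tube. The mice carried the Trem2 gene in its wild-type form, as a heterozygous knockout or as a homozygous knockout, and ate control chow or chow with 0.2% cuprizone. The 5-week cuprizone group held 3 wild-type, 3 heterozygous and 3 knockout animals, and the 12-week cuprizone group held 3, 4 and 3. The control-chow groups used below for reference held 9 animals at 5 weeks (3, 3 and 3) and 9 at 12 weeks (2, 4 and 3). Each combination of genotype, diet and week had 1 male, the other animals being female. The labels give no age or strain of the mice. Each library came from a different animal, so that the 2 times on the diet were compared between animals and not within them.

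Cuprizone binds copper, and feeding it leads to the death of mature oligodendrocytes, the cells that wrap axons in myelin, and the series used the shorter feeding to model acute and the longer feeding to model chronic demyelination. New oligodendrocytes can arise from resident precursors while the diet continues. Stressed oligodendrocytes are known to switch on the integrated stress response, a programme in which the factors Atf4, Ddit3 and Atf5 drive amino acid and growth factor genes. The nonmicroglia tube also holds astrocytes, endothelial and mural cells, ependymal and choroid plexus cells and a small remnant of neurons, because most neurons do not survive the dissociation of an adult brain. In such bulk samples, fewer cells of a type and less RNA per cell cannot be told apart. The weeks on the diet, the age of the animals and any batch of feeding, sorting or library preparation changed together, and their parts cannot be told apart.

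Levels are given as CPM (counts scaled to the size of the library, after TMM normalization), and differences as log2 of the 12-week level over the 5-week level with a standard error. The libraries made tags near the 3' end of transcripts, so CPM does not grow with transcript length. The 19 libraries held 1377106 to 3441041 counts, with a median of 1753867. Trem2, the targeted gene, lay at 4.61 to 16.8 CPM in the 6 wild-type, 4.12 to 14.9 CPM in the 7 heterozygous and 4.38 to 9.74 CPM in the 6 knockout libraries, and such a low level of 3' tags does not check the genotype labels. The largest marker sums were those of 30 mature oligodendrocyte genes (10273 to 41118 CPM), 14 ependymal and choroid plexus genes (9191 to 37706 CPM) and 24 astrocyte genes (9100 to 16745 CPM). Smaller sums were those of 14 neuron genes at 352 to 6784 CPM, 22 endothelial genes at 3791 to 6204 CPM and 18 microglia genes at 594 to 1688 CPM. Gfap, the usual astrocyte filament marker, reached at most 36.3 CPM. Noncoding genes took up 13.7% ± 1.74 (SD, n = 9) of the counts of a library at 5 weeks and 11.5% ± 1.71 (SD, n = 10) at 12 weeks, a difference of -2.29 percentage points (exact two-sided permutation test, p = 0.011). On control chow the same share was 12.1% ± 1.22 (SD, n = 9) and 10.7% ± 1.43 (SD, n = 9; exact permutation test, p = 0.0453). The number of genes detected was also lower at 12 weeks on cuprizone (mean 14107 against 14972, exact permutation test, p = 0.0107). An RNA integrity number was recorded for 9 of the 9 libraries at 5 weeks (7.3 to 8.8) and for 2 of the 10 at 12 weeks (8.5 and 9.2). A 12-week heterozygote, animal 9469, stood apart from the rest on the second principal component.

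Between 5 and 12 weeks on cuprizone, genes of mature oligodendrocytes rose together with the enzymes Dct and Ptgds. Among the genes that fell were the calcium release channel Ryr2, the vesicle priming gene Unc13a and the splicing regulator Srrm3. All 14 neuron markers were below 0, with 2 calls. On control chow the 30 mature oligodendrocyte genes had a median difference of 0.64 and the 14 neuron markers of -1.20. Neither list held a call when the change over the weeks was compared between the diets, where 1 of 16915 genes passed (0.00591%). At that share lists this short would hold none, so this does not show that they changed alike on both diets. Of 14461 genes tested with genotype and sex as covariates, 62 rose and 111 fell at an adjusted p under 0.05 (edgeR's quasi-likelihood test with Benjamini-Hochberg adjustment), which is 1.20% of the genes in all, 0.429% higher and 0.768% lower. The median log2 difference over all genes tested was -0.01. All 62 genes that rose and all 111 that fell had the same sign in each of the 3 genotypes. The genes that rose had a median difference of 0.85 and none of them was a noncoding or predicted gene. The genes that fell had a median of -1.32, and 26 of them, or 23.4%, did not code for protein, against 11.5% of the genes tested. The share of noncoding counts moved with the weeks on cuprizone, as given above. With that share added as a covariate, 34 genes passed, 15 higher and 19 lower, and 29 of them were among the 173. Leaving out 1 library at a time gave 86 to 228 calls. Fewer than 115 genes passed without animal 743 (97), 9144 (86), 1106 (107), 1108 (110), 1746 (96), 3917 (92) or 1748 (113). All 173 kept their sign in each of these fits, which share all but 1 library with the main fit. Without animal 9469, which stood apart, 201 genes passed, 70 higher and 131 lower, 13 of them on the mature oligodendrocyte list.

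The 2 genes with the smallest p-values were Dct and Ptgds. Dct encodes dopachrome tautomerase, an enzyme of melanin synthesis in pigment cells (chr14:118012790-118052244, GRCm38). It lay at 11.2, 25.3 and 56.2 CPM (lowest, median and highest library) at 5 weeks on cuprizone and at 76.7, 138 and 274 CPM at 12 weeks. Every library at 12 weeks was above every library at 5 weeks, and the difference was 2.38 ± 0.23 (edgeR, adjusted p = 3.5e-09). On control chow Dct lay at 0, 1.64 and 24.5 CPM at 5 weeks and at 0, 15.6 and 25.9 CPM at 12 weeks, and the groups overlapped. Other genes of pigment cells were picked after the values were seen, and they had few counts or none. Tyrp1 and Mlana had no count in any of the 19 libraries, and Tyr had none in 18 of them. Pmel had none in 13, with 33 counts in all libraries at 5 weeks and 36 in all at 12 weeks. The cell source of Dct was not tested.

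Ptgds encodes the brain form of prostaglandin D synthase, a secreted protein made by oligodendrocytes, leptomeninges and choroid plexus (chr2:25466709-25470046, GRCm38). Its level was 219, 298 and 551 CPM at 5 weeks and 734, 1105 and 1330 CPM at 12 weeks. The 2 groups did not overlap, and the difference was 1.67 ± 0.16 (edgeR, adjusted p = 3.5e-09). On control chow, Ptgds lay at 379, 491 and 934 CPM and at 514, 635 and 1338 CPM. There the groups overlapped and the difference of 0.41 ± 0.18 did not pass (edgeR, adjusted p = 0.492). The 14 ependymal and choroid plexus genes were all above 0 with a median of 0.33 on cuprizone and of 0.65 on control chow, and included no call in either direction. On cuprizone they summed to a median of 17215 CPM at 5 weeks and 17104 CPM at 12 weeks. The cell source of Ptgds was not tested.

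**Figure D1:**
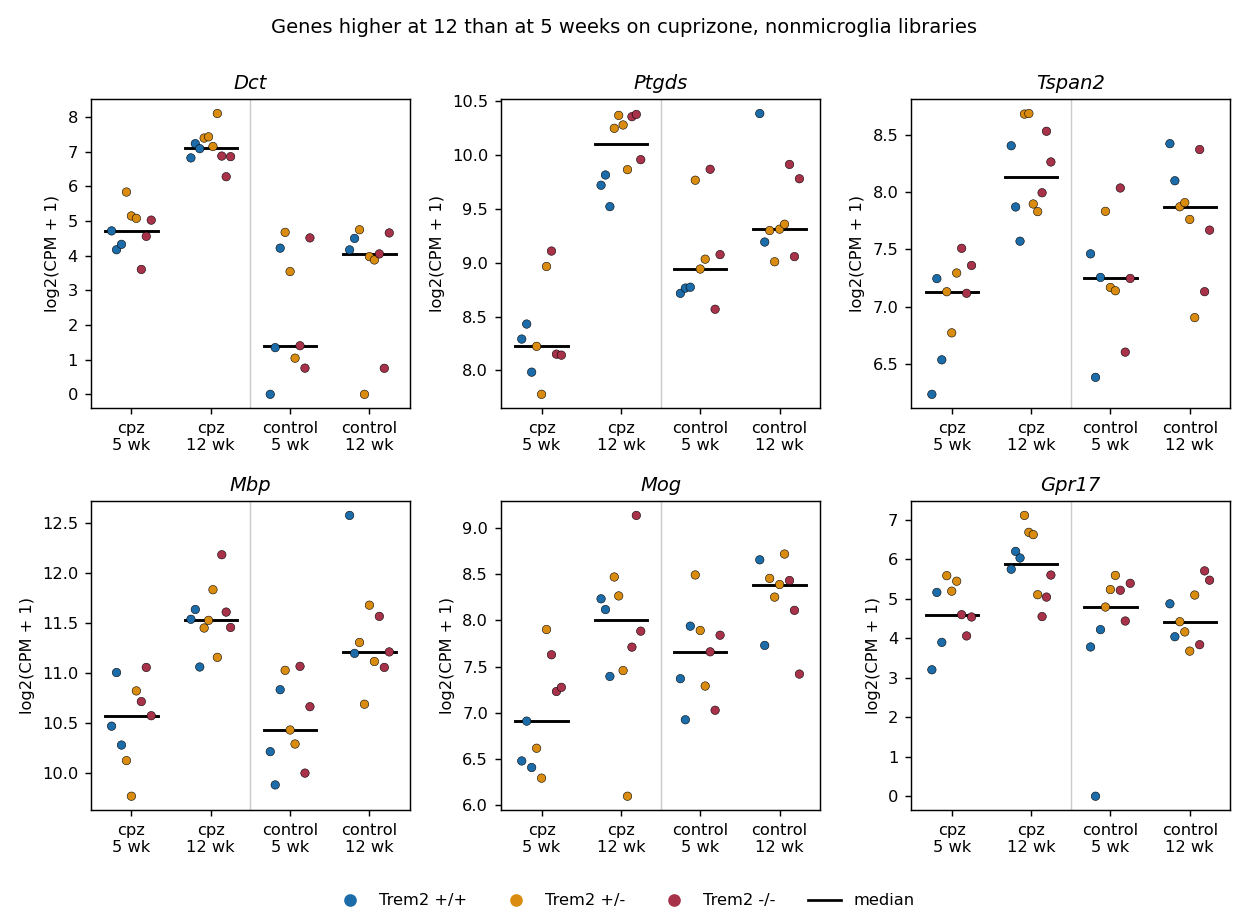
Levels of 6 genes in each of the 37 nonmicroglia libraries, on a log2(CPM + 1) axis, by diet and week, with the genotype of each animal marked and cuprizone written as cpz; bars are medians. Dct, Ptgds, Tspan2 and Mbp show no overlap between 5 and 12 weeks on cuprizone, Mog and Gpr17 do.

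Of the 30 mature oligodendrocyte genes, all tested, 13 rose and none fell, 29 had a positive difference, and the median was 0.70 against -0.01 over all genes. Their summed level was 10273, 19636 and 25432 CPM at 5 weeks and 20383, 30717 and 41118 CPM at 12 weeks, so that the ranges overlapped. The rule named Tspan2, Ugt8a, Mog, Ppp1r14a and Apod from the list, and the other members given here with values were picked after their values were seen. Mbp, which encodes the protein that holds the inner faces of the myelin membrane together, went from 869.6, 1521 and 2127 CPM to 2134, 2961 and 4653 CPM. All 10 libraries at 12 weeks exceeded the highest at 5 weeks, with a difference of 1.03 ± 0.15 (edgeR, adjusted p = 6.66e-05). Mal, a raft protein of compact myelin, went from 239.9, 421 and 516 CPM to 528, 700.0 and 1254 CPM, without overlap (1.06 ± 0.17, edgeR, adjusted p = 0.000267). Tspan2, a tetraspanin of oligodendrocytes, went from 74.5, 139 and 181 CPM to 189, 279.8 and 410.0 CPM, also without overlap (1.18 ± 0.18, edgeR, adjusted p = 6.66e-05).

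Other members rose with overlapping groups. Cldn11, the tight junction claudin of myelin, went from 167, 321 and 459 CPM to 319, 566 and 959 CPM (1.04 ± 0.19, edgeR, adjusted p = 0.00193). Ugt8a, which makes the myelin lipid galactosylceramide, went from 23.8, 69.2 and 126 CPM to 78.8, 143 and 249 CPM (1.08 ± 0.26, edgeR, adjusted p = 0.0272). Opalin, a membrane protein of the myelin loops, went from 13.3, 64.1 and 89.0 CPM to 60.8, 119 and 172 CPM (0.996 ± 0.25, edgeR, adjusted p = 0.0296). Mog, a glycoprotein on the outer myelin surface, showed the widest spread of these: 77.4, 119 and 238 CPM against 67.4, 256 and 562 CPM, the lowest library of all being one at 12 weeks (1.06 ± 0.26, edgeR, adjusted p = 0.044). Ppp1r14a, a phosphatase inhibitor abundant in oligodendrocytes, had the largest difference on the list at 1.31 ± 0.33 (edgeR, adjusted p = 0.0386), but 0.54 with the noncoding share as a covariate (adjusted p = 0.77), and it lost its call in 15 of 19 fits without 1 library. The remaining called members were Sept4 (0.80), Pllp (0.76), Gjc3 (0.70), Ermn (0.62) and Apod (0.61). Several hallmark genes did not pass: Mag, an adhesion protein of the inner myelin layer, lay at 308, 439 and 678 CPM and at 536, 712 and 1756 CPM (0.71 ± 0.21, edgeR, adjusted p = 0.0973), Cnp had 0.62 (adjusted p = 0.0789) and Mobp 0.58 (adjusted p = 0.0693). Trf, the transferrin of oligodendrocytes, was the 1 member below 0, at -0.05. With the noncoding share as a covariate, 3 members passed and 28 were above 0, with a median of 0.54. Leaving out 1 library at a time gave 7 to 16 called members, with 7 or 8 without animals 743, 9144, 1108, 2478, 8485, 1746 or 1748. In the fit with the covariate Mbp had 0.96 (edgeR, adjusted p = 0.00448), Cldn11 0.51 (adjusted p = 0.351) and Mog 0.36 (adjusted p = 0.779). Mog lost its call in 14, Opalin in 7 and Ugt8a in 6 of the 19 fits without 1 library.

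**Figure D2:**
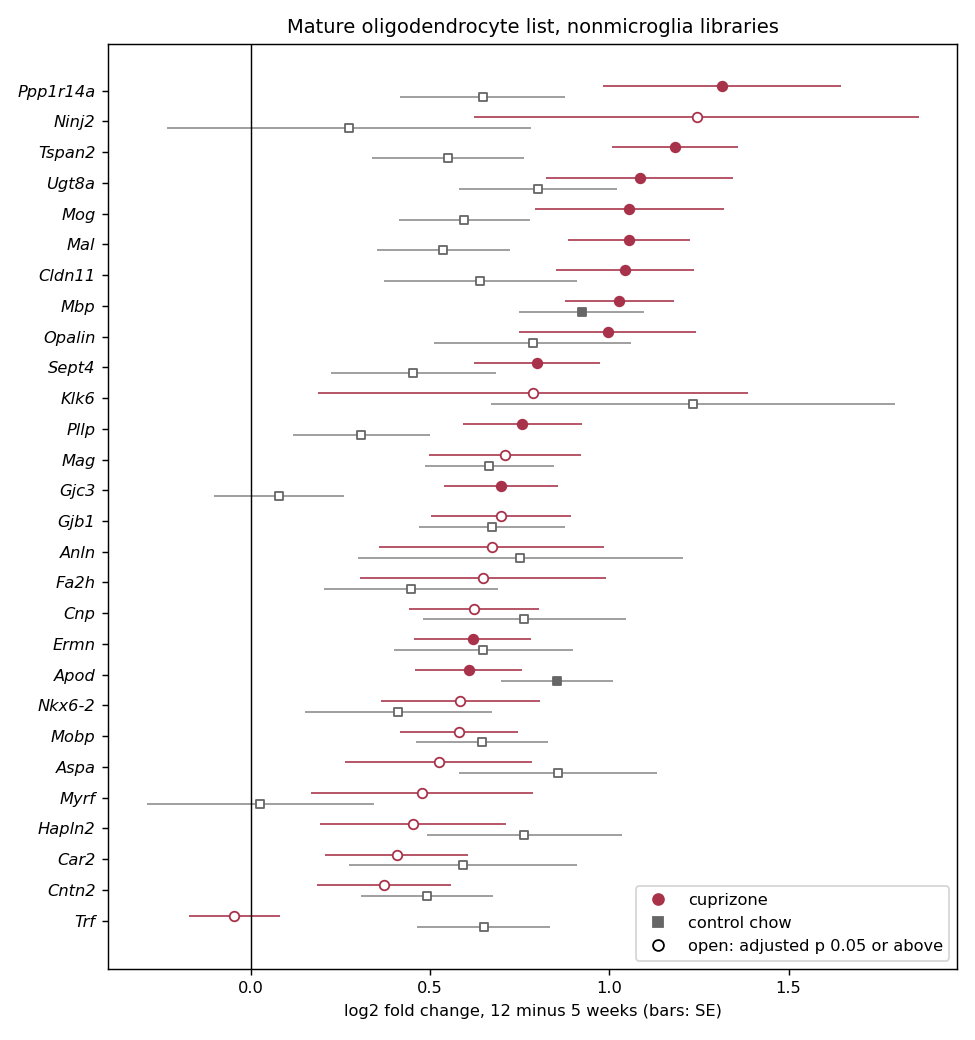
Log2 differences between 12 and 5 weeks for 28 of the 30 mature oligodendrocyte genes on cuprizone and on control chow, with standard errors as bars and called genes marked. On cuprizone 27 of the 28 shown lie above 0 and 13 passed, and on control chow all 28 lie above 0 and 2 passed.

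Outside the list, further genes known from oligodendrocytes were among the 62. They were picked after their values were seen. Stmn4, a tubulin-binding stathmin named by its size of change, went from 184, 404 and 687 CPM to 514, 921 and 1723 CPM (1.25 ± 0.17, edgeR, adjusted p = 1.53e-05). Tppp, a microtubule organiser of myelin sheaths, went from 93.1, 120.3 and 157 CPM to 164, 241 and 379.7 CPM without overlap (0.99 ± 0.17, edgeR, adjusted p = 0.000652). Lpar1, a lysophosphatidic acid receptor, rose by 1.01 ± 0.18 (edgeR, adjusted p = 0.00126). Tmem88b, a small membrane protein, rose by 1.001 ± 0.15 (edgeR, adjusted p = 6.66e-05).

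Earlier stages of the lineage gave 1 call. Of 11 tested genes of newly formed oligodendrocytes Gpr17 alone passed, and the median was 0.05. Gpr17 is a receptor of precursors that are committed to differentiate. It lay at 8.20, 23.2 and 47.0 CPM at 5 weeks and at 22.4, 58.6 and 137 CPM at 12 weeks, with 7 of the 10 later libraries above the highest earlier one (1.23 ± 0.29, edgeR, adjusted p = 0.0209). On control chow its difference was -0.03 ± 0.48. With the noncoding share as a covariate Gpr17 had 1.02 on cuprizone (edgeR, adjusted p = 0.29). It lost its call in 3 of 19 fits without 1 library. None of the 16 precursor genes passed, their median was -0.04, and their summed level was 2133 CPM at 5 weeks and 2156 CPM at 12 weeks (medians). Pdgfra, the growth factor receptor that marks precursors, picked after its value was seen, had -1.29 ± 0.56 (edgeR, adjusted p = 0.376), and Olig1, a factor of the whole lineage, had 0.50 ± 0.15 (adjusted p = 0.0843).

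Promoters of genes that rose were searched for the core letters of SOX factors, a family that includes the myelination factor Sox10, as ACAAAG or its reverse complement CTTTGT within 250 bases upstream of the start. The motif was chosen after the values were seen. Matches were counted over the mature oligodendrocyte list and over all genes tested, not over all genes that rose. Dct had the largest rise among the called genes named here. Opalin, a myelin gene, is 1 of the 3 called oligodendrocyte genes with a match, and most of those with a promoter held none. Both are shown, read in the direction of transcription from RefSeq on GRCm38.p6, with matches in capitals.
Dct, chr14:118052247-118052496, minus strand: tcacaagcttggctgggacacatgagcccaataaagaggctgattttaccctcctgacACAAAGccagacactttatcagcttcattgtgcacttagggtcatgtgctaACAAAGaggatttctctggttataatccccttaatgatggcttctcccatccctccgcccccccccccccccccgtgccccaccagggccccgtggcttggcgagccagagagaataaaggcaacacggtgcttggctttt
Opalin, chr19:41077114-41077363, minus strand: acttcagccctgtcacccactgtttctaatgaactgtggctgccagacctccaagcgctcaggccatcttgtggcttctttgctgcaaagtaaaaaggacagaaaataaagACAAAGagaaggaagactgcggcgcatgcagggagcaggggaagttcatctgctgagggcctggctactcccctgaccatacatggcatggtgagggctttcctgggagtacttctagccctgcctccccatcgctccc
Dct held 2 matches and Opalin 1. Among the 13 oligodendrocyte genes that rose, 11 had a promoter in the table and 3 of these, or 27.3%, held a match. Among the other 17 tested members, 11 had a promoter and 5, or 45.5%, held a match. A match stood in 1518 of the 10445 tested genes with a promoter (14.5%) and in 16.5% of all 32851 promoters of that length. A match is a run of letters and not a measured binding site.

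Other rises were spread over several roles. Il33, an alarmin that oligodendrocytes and astrocytes store in their nuclei, went from 70.0, 143 and 234 CPM to 164, 246 and 402 CPM (0.84 ± 0.19, edgeR, adjusted p = 0.0139). Adamts4, a protease of proteoglycans, rose by 0.88 ± 0.22 (edgeR, adjusted p = 0.0296) as the 1 call among 17 matrix genes. Scd2, a fatty acid desaturase, rose by 0.55 ± 0.13 (edgeR, adjusted p = 0.0226) as the 1 call among 18 genes of myelin lipid synthesis, whose median was 0.35. None of 22 tested genes of cholesterol synthesis passed (median 0.12), and Apod, a lipid carrier, was the 1 call among 14 genes of cholesterol efflux and storage. Serpinb1a, a protease inhibitor, rose by 1.14 ± 0.28 (edgeR, adjusted p = 0.0281), and Tmem125, Tmem132b and Trim59 rose by 1.37, 1.25 and 1.13.

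Large falls lay in genes of low level. Ryr2, a calcium release channel of the endoplasmic reticulum in neurons and heart (chr13:11553102-12106945, GRCm38), went from 19.3, 49.5 and 126 CPM to 0.906, 6.39 and 12.4 CPM. All libraries at 12 weeks were below all at 5 weeks, and the difference was -3.35 ± 0.53 (edgeR, adjusted p = 0.00043). Trank1, a large repeat-containing protein of unclear role (chr9:111311739-111395775, GRCm38), went from 11.2, 35.3 and 96.0 CPM to 0, 0.581 and 9.84 CPM, with 4 of the 10 later libraries at 0 and no overlap (-4.69 ± 0.84, edgeR, adjusted p = 0.00228). Srrm3, a neuronal splicing regulator, went from 26.0, 46.4 and 86.8 CPM to 0.453, 6.64 and 18.1 CPM, again without overlap (-2.83 ± 0.54, edgeR, adjusted p = 0.00407). Its relative Srrm4 fell by 4.05 on the log2 scale with a standard error of 1.03 (edgeR, adjusted p = 0.0349), from a median of 14.6 CPM to 0.246 CPM. Srrm4 lost its call in 10 of 19 fits without 1 library. At 12 weeks Trank1 and Srrm4 lay near 0, and their 5-week levels alone carried them past the filter on low counts. The sizes of their falls are therefore imprecise.

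**Figure D3:**
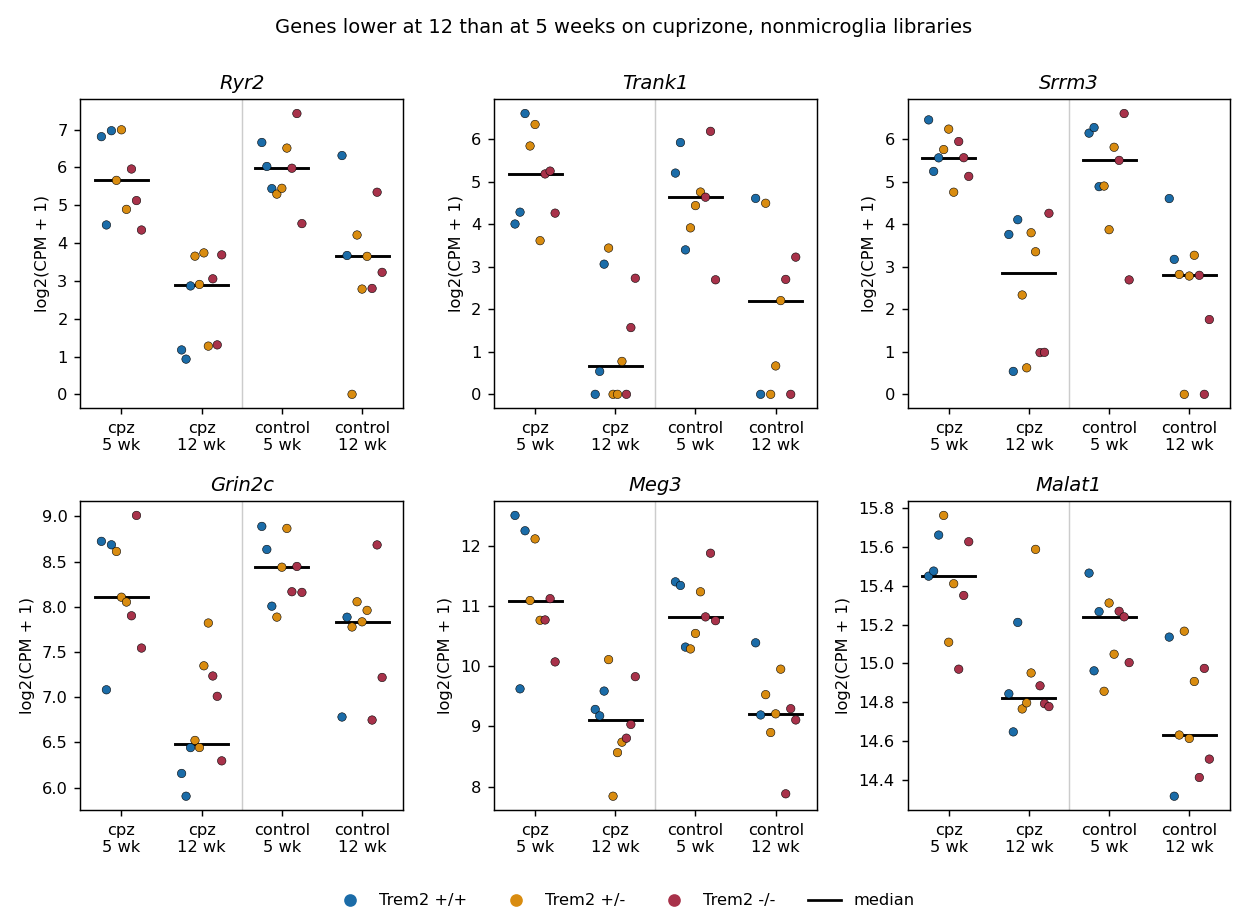
Levels of 6 genes in each of the 37 nonmicroglia libraries, on a log2(CPM + 1) axis, by diet and week, with genotype marked and cuprizone written as cpz; bars are medians. Ryr2, Trank1 and Srrm3 do not overlap between 5 and 12 weeks on cuprizone, while Malat1, the most abundant of the 6, overlaps.

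Leaving aside predicted genes and those averaging under 3 in log2 CPM, the 12 largest falls included calcium channel and presynaptic genes. Cacna1e, the pore of an R-type calcium channel, went from 18.1, 56.7 and 145 CPM to 0, 3.43 and 19.2 CPM, the highest later library lying just above the lowest earlier one (-3.27 ± 0.73, edgeR, adjusted p = 0.0257). Cacna1c, an L-type channel, had -2.75 ± 0.74 (edgeR, adjusted p = 0.0499). Unc13a, which primes synaptic vesicles, had -3.15 ± 0.71 (adjusted p = 0.0135), and Erc2, a scaffold of the presynaptic active zone, had -2.73 ± 0.60 (edgeR, adjusted p = 0.0117). Neurod1, a transcription factor of granule neurons, went from 2.48, 40.9 and 93.4 CPM to 0, 4.38 and 24.6 CPM (-2.98 ± 0.59, edgeR, adjusted p = 0.00581). Nrxn3, a synaptic adhesion protein, had -2.36 ± 0.53 (edgeR, adjusted p = 0.033). Of the 19 fits without 1 library, Cacna1c lost its call in 16, Nrxn3 in 11, Cacna1e in 3 and Unc13a in 1, and Erc2 and Neurod1 in none.

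Grin2c, an NMDA receptor subunit of cerebellar granule cells that astrocytes also express, went from 134, 274 and 515 CPM to 58.9, 88.4 and 225 CPM, with 7 of 10 later libraries below every earlier one (-1.51 ± 0.21, edgeR, adjusted p = 1.83e-05). The next 5 genes were picked from the calls after their values were seen, and no list of glutamate receptor genes was tested. Gria2, an AMPA receptor subunit, went from 211.2, 312 and 404 CPM to 75.7, 143 and 211.2 CPM, the nearest libraries differing only in the second decimal (-1.17 ± 0.19, edgeR, adjusted p = 0.000319). Gria1 had -0.95 ± 0.21 (adjusted p = 0.0103), Grin2b -1.74 ± 0.41 (adjusted p = 0.029), the kinase subunit Camk2a -1.98 ± 0.45 (adjusted p = 0.0249) and the calcium pump Atp2b2 -1.60 ± 0.28 (edgeR, adjusted p = 0.000664). Chd5, a chromatin remodeller of neurons named because it was called in 1 genotype, went from 49.7, 89.5 and 221 CPM to 7.79, 24.3 and 59.4 CPM (-1.96 ± 0.31, edgeR, adjusted p = 0.000267).

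The 14 neuron markers were all below 0 with a median of -1.27, and 2 passed. Their summed level was 1094, 2643 and 6784 CPM at 5 weeks and 352, 756 and 1492 CPM at 12 weeks, overlapping between 1094 and 1492 CPM. Meg3, a long noncoding RNA abundant in neurons, made up most of it, going from 788, 2177 and 5788 CPM to 229, 550.4 and 1103 CPM (-2.14 ± 0.42, edgeR, adjusted p = 0.0251). Nefm, a neurofilament protein, had -1.36 ± 0.37 (edgeR, adjusted p = 0.0499). Nefm lost its call in 15 and Meg3 in 4 of the 19 fits without 1 library. Of 9 neurosecretory genes, Chgb and Scg2, granins of dense-core vesicles, had -2.23 ± 0.49 (adjusted p = 0.0135) and -1.85 ± 0.46 (edgeR, adjusted p = 0.033), while Syt4 rose. The summed neuron markers moved in the same direction on control chow, from a median of 2302 CPM to 868 CPM, with a median log2 difference of -1.20 and 1 call. With the noncoding share as a covariate, no neuron marker passed on cuprizone.

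Some falls lay in genes of far higher level, and those named next were picked after their values were seen. Malat1, a nuclear long noncoding RNA, went from 32091, 44758 and 55613 CPM to 25645, 28918 and 49256 CPM (-0.49 ± 0.13, edgeR, adjusted p = 0.037), and Neat1, which builds nuclear paraspeckles, had -0.59 ± 0.14 (adjusted p = 0.0278). With the noncoding share, to which Malat1 itself contributes, as a covariate, Malat1 had -0.22 (edgeR, adjusted p = 0.713). Several called genes encode RNA-processing proteins, and 11 of them were gathered because they were called lower on cuprizone, so that their shared direction there is no result, and RNA-processing genes as a group were not tested. On control chow 106 of all 109 tested falls were below 0 and 16 were called lower. These 11 were all below 0 there and 3 were called lower, so that their direction follows that of the falls as a whole. Among them Pnisr, a protein of nuclear speckles, went from 668, 1115 and 1707 CPM to 336, 474 and 648 CPM without overlap (-1.12 ± 0.17, edgeR, adjusted p = 6.66e-05). Luc7l3, a splicing factor, went from 831, 1046 and 1330 CPM to 571, 686 and 761 CPM, also without overlap (-0.60 ± 0.13, edgeR, adjusted p = 0.00895). Rbm25, Srsf11, Srek1, Prpf38b, Snrnp70, Ccnl1 and Ccnl2 had differences between -0.59 and -0.86.

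Astrocyte markers gave a few falls. Of 24 homeostatic astrocyte genes 3 fell, none rose, 5 were above 0 and the median was -0.25. Ntsr2, a neurotensin receptor of astrocytes, went from 55.4, 121 and 169 CPM to 16.9, 51.9 and 104 CPM, with 6 of 10 later libraries below every earlier one (-1.12 ± 0.26, edgeR, adjusted p = 0.0209). Fgfr3, a growth factor receptor, had -0.68 ± 0.17 (adjusted p = 0.0315). Slc1a2, the main glutamate transporter, went from 1378, 1860.3 and 2520 CPM to 879.9, 1325 and 1984 CPM (-0.57 ± 0.15, edgeR, adjusted p = 0.0381). No reactive astrocyte gene passed of 18 tested, with a median of -0.33. With the noncoding share as a covariate none of the 24 homeostatic genes passed, and without 1 library at a time 0 to 3 did.

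The other cell types of the tube gave almost no calls, where 1.20% of all genes tested were called. At that share lists this short would give few calls or none, so these counts do not show that the cell types stayed unchanged. None of 22 endothelial genes passed (median 0.01), none of 13 mural genes (0.18), none of 18 microglia genes (0.24), none of 15 lymphocyte genes (0.39), none of 5 border macrophage genes (-0.12), none of 5 neutrophil and monocyte genes (0.52), none of 6 fibroblast genes (-0.05) and none of 3 erythroid genes (-0.78). Of the 18 microglia genes 16 were above 0 on cuprizone, and 8 of 18 on control chow. The summed microglia markers were 653, 853 and 1117 CPM at 5 weeks and 594, 823 and 1688 CPM at 12 weeks. In the list of disease-associated microglia 16 of 18 genes were above 0 and 1 passed, Cd63, a lysosomal tetraspanin that many cell types express. Cd63 went from 924, 1154 and 1521 CPM to 1432, 1785 and 2156 CPM (0.59 ± 0.12, edgeR, adjusted p = 0.00781). Of 10 neuroblast and neural stem genes, Tubb3, a tubulin of young neurons, rose by 0.86 ± 0.21 (edgeR, adjusted p = 0.0278) and Nrxn3 fell, as given above. No gene passed among 30 of the interferon response (median -0.25), 18 of antigen presentation (0.09), 22 of the cell cycle (0.52), 88 ribosomal protein genes (0.23) or 83 nuclear genes of the respiratory chain (0.21). Of the 83 respiratory chain genes 72 were above 0, and of the 88 ribosomal protein genes 61 were.

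The same weeks on control chow showed which differences appeared without cuprizone. In those 18 other libraries 27 of 15218 genes passed, or 0.177%, 6 higher (0.0394%) and 21 lower (0.138%). Without 1 library this count ran from 12 (animal 9546) to 64 (animal 8635), with 14 without animal 1104, 17 without 1744, 9467 or 4352, and 61 without 1932. Of the 62 genes that rose on cuprizone, 58 had the same sign on control chow and 5 were called there too, with a median of 0.51. Of the 111 that fell, 109 were tested on control chow, 106 had the same sign and 16 were called, with a median of -0.86. The share of like sign over all genes tested on both diets was not counted. Mbp, for example, went from 941, 1378 and 2144 CPM to 1648, 2370 and 6114 CPM on control chow (0.92 ± 0.17, edgeR, adjusted p = 0.00595). Srrm3 fell there too, at -2.77 ± 0.58 (edgeR, adjusted p = 0.0157). The 30 mature oligodendrocyte genes had a median of 0.64 on control chow, with 2 calls, and the homeostatic astrocyte genes -0.32, with none.

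**Figure D4:**
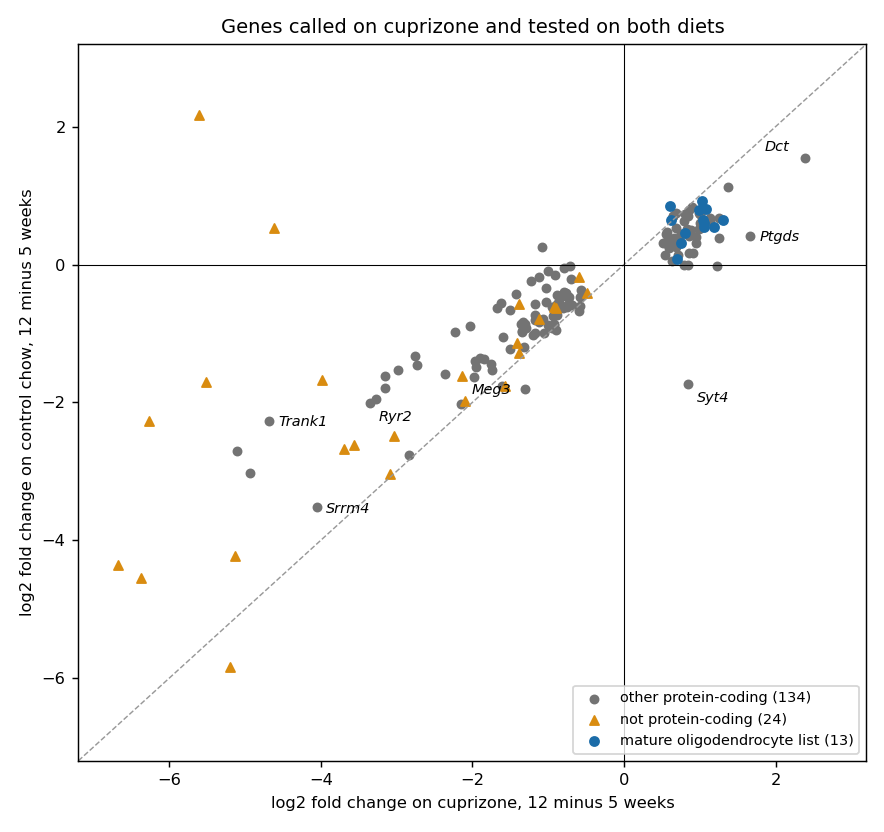
Log2 differences between 12 and 5 weeks on cuprizone (horizontal axis) and on control chow (vertical axis) for the 171 called genes tested on both diets: 13 mature oligodendrocyte genes, 24 genes that do not code for protein and 134 others. Of these, 58 of the 62 rises and 106 of the 109 falls share their sign on both axes, and the medians on control chow are 0.51 and -0.86.

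The difference between the diets in their change over the weeks was tested over all 37 nonmicroglia libraries, and 1 of 16915 genes passed (0.00591%), with 715 at an unadjusted p under 0.05. That gene was Syt4, a synaptotagmin of dense-core vesicles. On cuprizone it lay at 72.1, 83.4 and 149 CPM at 5 weeks and at 92.5, 170.0 and 270.3 CPM at 12 weeks, with 8 of 10 later libraries above the highest earlier one (0.84 ± 0.19, edgeR, adjusted p = 0.0128). On control chow it lay at 6.37, 23.2 and 35.7 CPM and at 2.60, 5.46 and 14.9 CPM, a difference of -1.73 ± 0.67 that did not pass (edgeR, adjusted p = 0.366). The diets' changes differed by 2.55 ± 0.40 (edgeR, adjusted p = 0.000218), and by 2.49 with limma voom, which did not call it (adjusted p = 0.637). Without 1 library at a time Syt4 had 2.32 to 2.96, the count of calls being 1 to 8 and highest without animal 9145. Ptgds came next among the genes described here, with 1.17 ± 0.24 (edgeR, adjusted p = 0.0546). The 30 mature oligodendrocyte genes gave no call and a median of 0.09. With so few calls in all, this does not show that they changed alike on both diets.

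At each time the diets were also compared, with the same cuprizone libraries as above. Cuprizone differed from control chow in 75 genes at 5 weeks (0.443%, 47 higher and 28 lower) and in 84 at 12 weeks (0.497%, 54 higher and 30 lower). Genes of the integrated stress response were higher on cuprizone at both times: 9 of 28 passed at 5 weeks with a median of 1.05, and 8 passed at 12 weeks with a median of 0.91, none lower. Gdf15, Ddit3 and Atf5 were picked after their values were seen. Gdf15, a stress-induced cytokine, was 5.18 ± 0.42 above control chow at 5 weeks and 4.30 ± 0.42 at 12 weeks. Ddit3, a transcription factor of the programme, was 2.52 and 2.61 above, and Atf5 2.01 and 2.50 above. Between the weeks on cuprizone these genes did not pass: Gdf15 lay at 52.7, 123 and 236 CPM and at 83.8, 131 and 311 CPM (0.18 ± 0.21, edgeR, adjusted p = 0.853). Atf5 had 0.55 ± 0.23 (adjusted p = 0.369), and Trib3, a pseudokinase that restrains the programme, had -1.13 ± 0.32 (edgeR, adjusted p = 0.0693), from 39.0, 62.9 and 98.3 CPM to 6.25, 30.3 and 52.1 CPM. None of the 27 tested genes of the list passed between the weeks, with a median of -0.04.

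**Figure D5:**
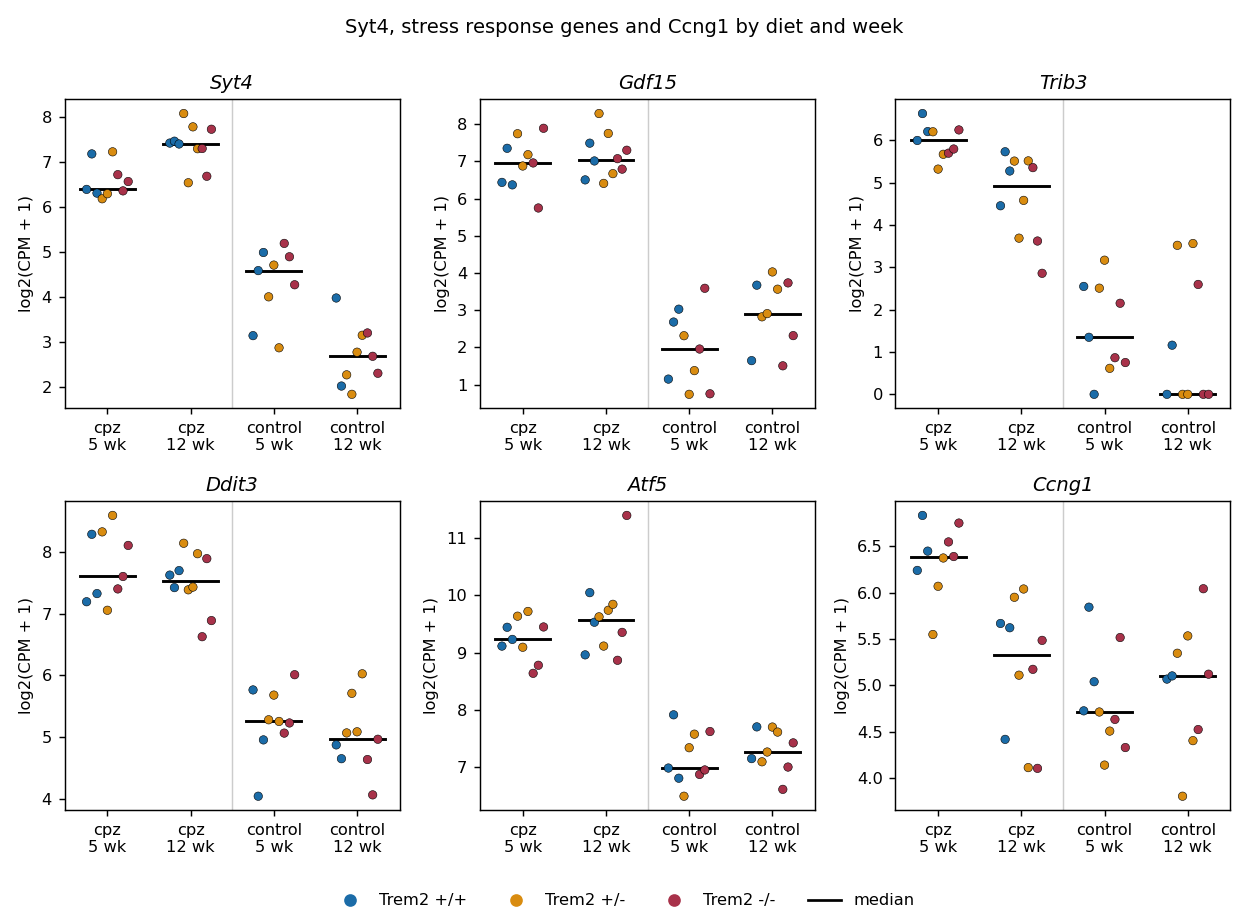
Levels of 6 genes in each of the 37 nonmicroglia libraries, on a log2(CPM + 1) axis, by diet and week, with genotype marked and cuprizone written as cpz; bars are medians. Syt4, Gdf15, Trib3, Ddit3 and Atf5 are higher on cuprizone at both times, and Ccng1 is higher at 5 weeks, with a median of 82.7 CPM on cuprizone and 25.2 CPM on control chow.

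Ccng1, a cyclin induced by p53, was the 1 call among 15 genes of the p53 list between the weeks. It went from 45.8, 82.7 and 113 CPM to 16.2, 39.4 and 64.7 CPM on cuprizone (-1.08 ± 0.27, edgeR, adjusted p = 0.0293) and had 0.25 ± 0.40 on control chow. Against control chow it was 1.48 ± 0.31 higher at 5 weeks (edgeR, adjusted p = 0.00446) and 0.18 ± 0.31 at 12 weeks (adjusted p = 1). The difference of these differences did not pass (-1.30 ± 0.44, edgeR, adjusted p = 0.903). Ptgds was 0.71 lower than on control chow at 5 weeks (-0.71 ± 0.17, edgeR, adjusted p = 0.0244) and had 0.46 ± 0.17 at 12 weeks (adjusted p = 0.31). Dct had 1.88 ± 0.64 at 5 weeks (edgeR, adjusted p = 0.338) and 3.17 ± 0.65 at 12 weeks (adjusted p = 0.015). Ntsr2 had -0.48 ± 0.23 at 5 weeks (edgeR, adjusted p = 0.634) and at 12 weeks -1.51 ± 0.24 (adjusted p = 1.62e-05). Of the mature oligodendrocyte genes, Mal and Ppp1r14a were below control chow at 5 weeks by -0.95 and -1.48 (edgeR, adjusted p = 0.000557 and 0.00386) and had -0.51 and -0.82 at 12 weeks (adjusted p = 0.253 and 0.273). Trf was called higher at 5 weeks, at 0.80 ± 0.15 (edgeR, adjusted p = 0.000611). At 12 weeks Gjc3 was called higher, at 1.24 ± 0.17 (edgeR, adjusted p = 5.87e-07), and 1 other member of the list was called lower. Their list had a median of -0.27 against control chow at 5 weeks and of -0.32 at 12 weeks.

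Trem2 genotype was examined last, because the question of the series concerns this microglial receptor. Within wild types 7 genes passed between the weeks on cuprizone (0.0484%), 3 higher (0.0207%) and 4 lower (0.0277%). Within heterozygotes 3 passed (0.0207%), 2 higher (0.0138%) and 1 lower (0.00692%), and within knockouts 2 (0.0138%), both higher. Leaving out 1 library gave 1 to 45 calls in wild types (45 without animal 2474, 32 without 8043), 0 to 17 in heterozygotes (17 without 1040) and 0 to 2 in knockouts. Dct rose in each genotype, by 2.70 in wild types, 2.23 in heterozygotes and 2.25 in knockouts (edgeR, adjusted p = 0.00191, 0.0102 and 0.023). Ptgds rose by 1.45, 1.83 and 1.71 (edgeR, adjusted p = 0.0253, 0.00136 and 0.00909). Ryr2, Cacna1e and Grin2c were called lower in wild types, at -4.91, -6.27 and -1.99, beside -3.05, -2.11 and -1.20 in heterozygotes and -2.45, -2.46 and -1.38 in knockouts. Arl2, a small GTPase of tubulin folding, was called in wild types at 2.44 (edgeR, adjusted p = 0.0253), beside 0.18 and 0.54. Chd5 was called in heterozygotes at -2.57 (edgeR, adjusted p = 0.03), beside -1.97 in wild types and -1.17 in knockouts. The change over the weeks did not differ by genotype for any gene at an adjusted p under 0.05: 0 of 14461 genes passed for knockout against wild type with edgeR (0%; 519 at an unadjusted p under 0.05, 2 with DESeq2, 0 with limma voom). For heterozygote against wild type 0 passed with edgeR (0%; 761 unadjusted, 10 with DESeq2, 0 with limma voom). With 3 or 4 animals per genotype and week, these counts do not show that the genotypes changed alike.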

How the data were processed

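The deposited table holds counts of 3' tags per gene as whole numbers, unnormalized, for 49912 genes, made by the authors with STAR and R 3.4.3 on GRCm38.p6 after FastQC 0.11.5, per the submitters' processing notes. The sources used here name no counter, annotation, strand setting or molecular identifier, so overlapping genes and close paralogs may share counts. Coordinates are from GENCODE M21, matched by identifier for 49825 genes.

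Counts were analysed with edgeR 4.0.16 in R 4.3.3: filterByExpr with a minimum count of 10, TMM, and a robust quasi-likelihood model of week, genotype and sex, fitted apart to the 19 cuprizone and the 18 control-chow libraries. Week within genotype used group means and sex in the 19, and the diet comparisons used 12 group means and sex in all 37 libraries. Standard errors are the log2 difference over the square root of F. P-values were two-sided, adjusted by Benjamini-Hochberg over all genes tested, with calls under 0.05. CPM values use TMM over the 37 libraries. DESeq2 1.42.0, limma 3.58.1 (voom with quality weights) and further settings served as alternatives. On simulated counts, a larger share of the calls was false in the 37-library fit than in the fit to the 19. The counts were drawn once, with a chosen set of genes changed and no other difference between groups. Because the data differ from that setting, the share cannot be carried over to the calls given here. No 2 of the 19 libraries were copies of each other (lowest chi-square per degree of freedom 11.6 over 171 pairs), and animals were the replicates.

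Genes named are the 12 largest rises and falls among called genes with an average log2 CPM of at least 3, the same sign in the 3 genotypes and no predicted name, up to 4 called members (or else the one with the smallest p) of each gene list, up to 3 calls in each direction within a genotype, and every call where a comparison had 5 or fewer. Others are said to be picked after their values were seen. The comparison, members and lists were chosen with earlier results of these data known. The alternative without animal 9469 was added after seeing the data. Values of 3 genes that entered the fits and counts are not reported here.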

Additional observations from a re-analysis of the deposited data

Results flagged for a closer look

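Groups of 9 or 10 libraries were checked by the levels of the called genes named by the rule. In each week the noncoding share, total counts and genes detected were checked too. Of these 86 checks, 4 found 1 library far from the others by Dixon's criterion, which chance alone gives in about 1 of 20. All 4 were levels of a gene. Srrm4 lay at 0 CPM in the 5-week heterozygote 8042, below the other libraries at 5 weeks on cuprizone. Scg2 lay at 7.81 CPM in the 5-week wild type 2474. Tmem132b lay at 8.52 CPM in the 12-week heterozygote 9469, the library that stood apart on the second principal component. Tubb3 lay at 180.8 CPM in the 12-week knockout 9542.

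Syt4 was singled out because its change over the weeks differed between the diets in a direct test, by 2.55 ± 0.40 (edgeR's quasi-likelihood test, Benjamini-Hochberg adjusted p = 0.000218), rising on cuprizone while the change on control chow, -1.73, did not pass. The highest adjusted p without 1 library at a time was 0.00153 (edgeR). With limma voom Syt4 was not called (adjusted p = 0.637), and its rise on cuprizone lost its call in 3 of 12 alternative settings.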

How the results depend on the processing

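The 173 called genes between the weeks on cuprizone kept their sign under every alternative and every fit without 1 library (172 of 172 fitted in females only). These fits reuse the libraries on which the genes were called, so the shared sign is largely set by the selection. Their number was 513 with DESeq2, 312 with limma voom, 314 with no filter on low counts, 34 with the noncoding share and 99 with the immediate early share as a covariate, and 86 to 228 without 1 library. On control chow, 27 became 182 with DESeq2, 109 with voom and 81 with no filter (12 to 64 without 1 library). Diet by week gave 4, 0 and 3 in these settings (1 to 8), diet at 5 weeks 148 with DESeq2 and 115 with voom (51 to 95), and diet at 12 weeks 189 with DESeq2 (62 to 108). Within wild types the counts were 153, 45 and 106 (1 to 45), within heterozygotes 88, 11 and 54 (0 to 17) and within knockouts 22, 1 and 19 (0 to 2). Knockout against wild type by week gave 2 with DESeq2 and 6 with no filter (0 to 1), and heterozygote against wild type 10 and 18 (0 to 1). The cause was not tested. Ccr2, not called at 0.90, had -0.22 with the noncoding share as a covariate.

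Of the 40 called genes named by the rule, 40 kept their call with DESeq2, 35 with voom, 29 in females only, 20 with the immediate early share and 9 with the noncoding share as a covariate, and 14 in every fit without 1 library. The 9 that kept it in all of these were Dct, Ptgds, Stmn4, Tspan2, Trank1, Ryr2, Srrm3, Grin2c and Chd5. No paired analysis was possible because the weeks and diets compared were different animals, whose numbers pair only the 2 fractions of 1 brain. Genes at a few CPM rest on few counts at these depths, so that their differences are imprecise.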
